A study of Arabidopsis thaliana with 16 samples.

Results

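Described here are 4 Arabidopsis thaliana loci whose signal differed between iron-deficient and standard medium in each of the 4 root zones sampled. AT5G05250 and AT3G56360 were chosen as higher on -Fe medium, and AT2G36885 and AT3G49160 as lower. They are 4 of 13436 probe sets annotated to a single locus, among 22746 probe sets in all, with 1 probe set per locus. Each of the 4 passed the filter on dim signal. The differences between media chose these loci, so those differences are given as values and nothing is supported with their p-values. Their calls appear once, as description only. The tables used here give the 4 loci no gene name or function beyond the locus number. No genome build was named with the data, so no positions are given.

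Under iron shortage plants of this kind acidify the soil, reduce ferric iron at the root surface and take it up through specific transporters. A cascade of bHLH transcription factors, among them BHLH101 and PYE, regulates genes of this response. Proteins that hold iron as heme or iron-sulfur clusters, and stores of iron, are known to be made in smaller amounts at the same time. The uptake genes are known from the outer cells of the more mature root, whereas the tip consists of dividing cells and the root cap.

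Seedlings of the Columbia accession grew for 5 days on standard medium and were then moved either to fresh standard medium or to -Fe medium, in which 0.3 mM Ferrozine, an iron chelator, took the place of the iron source. About 15 roots per replicate were dissected and pooled. Zone 1 was the tip, cut off at about 150 µm. Zone 2 was the piece of 200 µm above it, which took in the rest of the meristem. Zone 3 was the following 200 to 300 µm, up to where hairs emerge, and zone 4 the 1000 µm above that. The 8 groups, 4 zones on 2 media, held 2 Affymetrix arrays each. The labels give 2 accounts of the time after transfer. The sample descriptions state 1 h for standard and 24 h for -Fe roots, and the treatment protocol 24 h for all, so medium and time cannot be told apart if the descriptions hold.

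Each array had been scaled to a common mean, and median intensity ran from 51.2 to 76.0 units. Arrays of a group correlated at r = 0.92 to 0.97 across probe sets. One array stood apart in its 25S ribosomal RNA control, with 348 units on replicate 2 of zone 4 standard medium and 2953 to 8609 on the other arrays. Of 23 markers fixed for cell types of the root and for green shoot tissue, 3 could be read by name. AUR1, a kinase of dividing cells, had its highest means in zone 1 (944 units on standard and 1072 on -Fe medium), and the root hair expansin EXPA7 in zone 3 (3206 and 4661). The other root hair marker, EXPA18, was also highest in zone 3 (3207 and 3944 units). In zone 2 both hair markers had lower means on -Fe than on standard medium, 49.3 against 214 units for EXPA7 and 30.0 against 139.5 for EXPA18, and AUR1 had 304 against 397. Averaged over zones none of the 3 differed between media past the threshold (limma, adjusted p = 0.322 for EXPA18, 0.705 for EXPA7 and 0.953 for AUR1). This average does not answer for a single zone, since the zones went in both directions. For EXPA18 the log2 differences (-Fe minus standard) were -1.24, -1.99, 0.3 and -0.95 in zones 1 to 4. For EXPA7 they were -0.62, -1.24, 0.53 and -0.20. The part of hair cell content in the zone 1 and zone 2 values was not tested. Markers of root cap, endodermis, xylem, phloem and shoot were not among the probe sets read by name here, so their part in the results was not tested.

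AT5G05250 was low on standard medium and bright on -Fe medium in every zone, and both standard arrays were dim only in zone 2. In zone 1 its intensity was 33.6 and 33.4 units on the standard arrays and 1802 and 749.5 on the -Fe arrays. In zone 2 the arrays read 11.2 and 16.5 against 1302 and 408 units. The lowest of the 8 -Fe arrays, zone 2 replicate 2, lay above the brightest standard array. Zone 3 gave 66.9 and 19.5 on standard and 2465 and 2226 units on -Fe medium. Zone 4 gave 100.1 and 37.3 against 3497 and 2220.2 units. No -Fe array overlapped a standard array in any zone, and only 5 of the 8 standard arrays lay above their own array's 40th percentile, the level used here to separate dim from readable probe sets. Fewer cells of an expressing type and less RNA per cell cannot be told apart in such pooled tissue.

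The log2 difference between media (-Fe minus standard, on log2 of intensity plus 7.73 units) for AT5G05250 was 4.83 in zone 1, 5.70 in zone 3 and 5.33 in zone 4, each with an SE of 0.61 (2 against 2 arrays). The means of intensity stood 38.1-fold apart in zone 1, 54.3-fold in zone 3, where standard replicate 2 was under its 40th percentile, and 41.6-fold in zone 4. In zone 2 both standard arrays were under the 40th percentile, so that only a bound is given: -Fe medium was at least 25-fold higher, taking each standard array at that percentile. This bound, like the other bounds given here, is a ratio of geometric means, whereas the fold values of the other zones are ratios of arithmetic means. The fitted zone 2 difference, 5.11, depends on these dim values and on the -Fe arrays, being 4.28 without -Fe replicate 1 and 5.94 without replicate 2.

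AT3G56360, the other locus with more signal on -Fe medium, was readable on all 16 arrays. In zone 1 it gave 163 and 411 units on standard medium and 2162 and 1856 on -Fe medium. In zone 2 the values were 160 and 126 against 2134 and 1697 units. The media were furthest apart here, where the standard signal was lowest. Zone 3 gave 792 and 438 against 3934 and 4719.9 units. Zone 4 gave 1536 and 1181 against 4881 and 5538 units. The groups did not overlap in any zone, and the brightest standard array, zone 4 replicate 1, stayed below the dimmest -Fe array, zone 2 replicate 2.

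For this locus the log2 differences were 2.91, 3.68, 2.85 and 1.94 in zones 1 to 4 (SE 0.37). The means stood 6.99-fold apart in zone 1, 13.4-fold in zone 2, 7.04-fold in zone 3 and 3.83-fold in zone 4. Both media had their highest signal in zone 4, where the ratio between them was smallest. The zone 1 difference was 2.26 without standard replicate 1 and 3.56 without standard replicate 2, the 2 arrays that read 163 and 411 units.

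**Figure D1:**
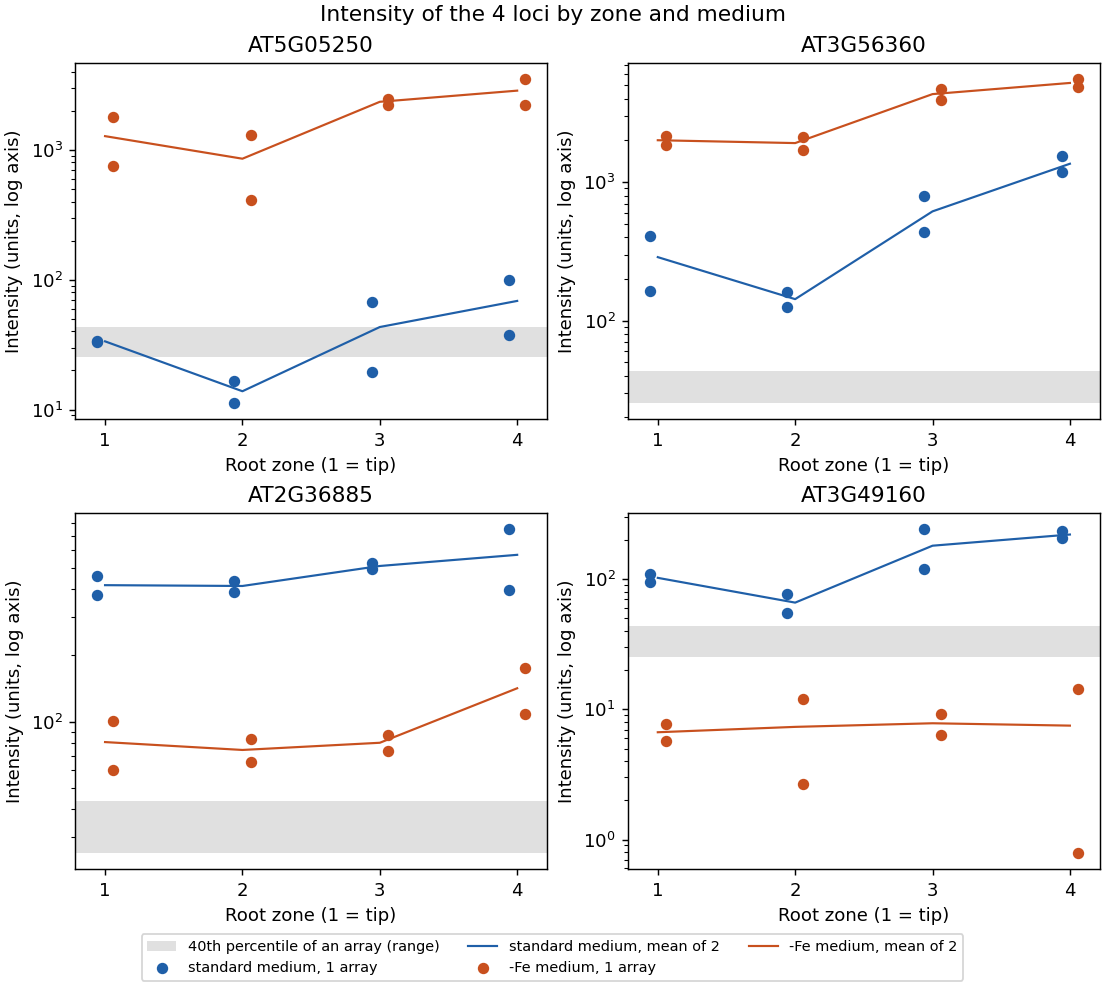
Intensity (units, logarithmic axis) of AT5G05250, AT3G56360, AT2G36885 and AT3G49160 in root zones 1 to 4; each point is 1 array, lines join the means of 2 arrays, blue is standard and orange -Fe medium, and the grey band spans the 40th percentiles of the 16 arrays (25.3 to 43.4 units). For each locus the 8 points of one medium lie above the 8 of the other, and all 8 -Fe points of AT3G49160 lie below the band.

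AT2G36885 had less signal on -Fe medium in every zone. In zone 1 the standard arrays read 377 and 458 units and the -Fe arrays 60.4 and 101. In zone 2 the values were 437 and 390.0 against 65.6 and 83.1 units. In both zones the lower standard array was above the higher -Fe array. Zone 3 gave 494 and 526 against 86.7 and 73.6 units, and here replicates were nearest to each other on both media. Zone 4 gave 396 and 750.4 against 108 and 175 units. All 16 values were above their array's 40th percentile, and the groups did not overlap in any zone.

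The log2 differences of AT2G36885 were -2.30, -2.37, -2.56 and -1.92 in zones 1 to 4 (SE 0.33), so its means stood 5.17-, 5.56-, 6.36- and 4.04-fold apart. Their range over the zones, 0.64, compares with an SD between replicates of 0.35 on the same log2 scale. The zone 4 value was -2.38 without standard replicate 1 and -1.47 without standard replicate 2, the array with the low 25S ribosomal RNA signal, which held the locus's highest intensity.

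AT3G49160 was readable on all 8 standard arrays and under the 40th percentile on all 8 -Fe arrays. In zone 1 it gave 94.8 and 110.1 units on standard and 5.69 and 7.65 on -Fe medium. In zone 2 it gave 77.0 and 55.2 against 2.69 and 11.98 units. The standard signal was lowest in this zone. Zone 3 gave 243 and 119 against 6.39 and 9.25 units. Zone 4 gave 206 and 235 against 0.789 and 14.2 units. The -Fe values were below the offset of 7.73 units on 5 of the 8 arrays, so they have no reliable order, and the groups did not overlap in any zone.

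Bounds were therefore taken for AT3G49160, with each -Fe array set at its own 40th percentile. Standard medium was at least 3.25-fold higher in zone 1, at least 2.55-fold in zone 2, at least 5.81-fold in zone 3 and at least 6.76-fold in zone 4. The fitted log2 differences, -2.94, -2.35, -3.52 and -4.06 (SE 0.47), depend on the offset. Without an offset they were -3.95, -3.52, -4.47 and -6.04, and with it doubled they were -2.41, -1.86, -3.0 and -3.42.

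**Figure D2:**
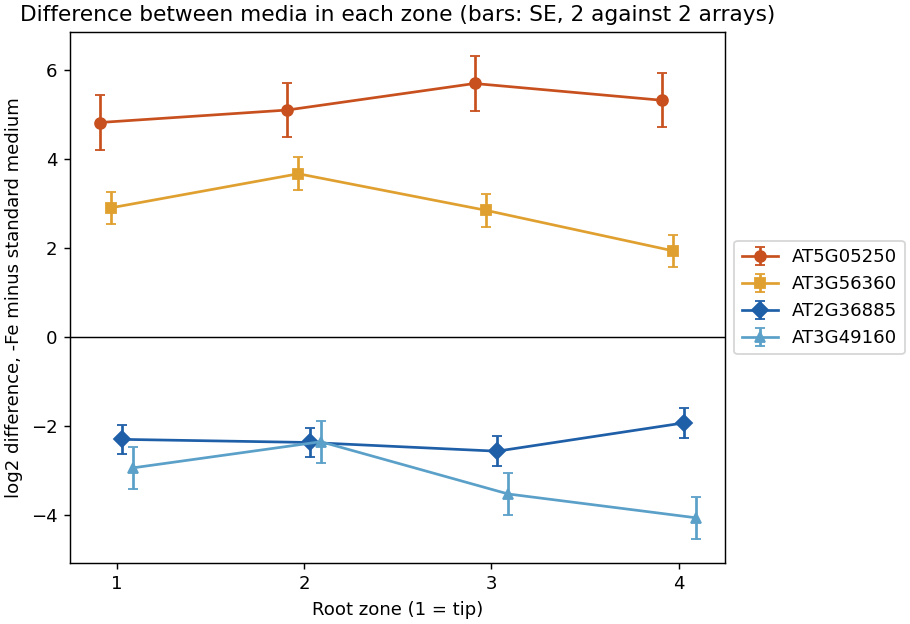
Log2 difference between media (-Fe minus standard, log2 of intensity plus the offset) in zones 1 to 4 for the 4 loci, as a description of what chose them; points are differences of group means, bars are SE, 2 against 2 arrays. AT3G56360 goes from 3.68 in zone 2 to 1.94 in zone 4. The AT5G05250 value in zone 2 and all AT3G49160 values are set against dim signal and depend on the offset.

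The calls of the difference between media in each zone are given as description. They cannot check a choice that was made on the same differences. At an adjusted p under 0.05 (limma, Benjamini-Hochberg over 16505 probe sets), 0.109% of probe sets were called between media in zone 1, 0.103% in zone 2, 0.291% in zone 3 and 0.927% in zone 4. AT5G05250, AT3G56360 and AT2G36885 were called in all 4 zones and AT3G49160 in 3, the exception being zone 2 (adjusted p = 0.153, against 0.0343 for AT3G49160 in zone 1 and 0.0254 for AT3G56360 in zone 4, the called values nearest the threshold). These calls rest on the spread shared by all 16 arrays and on single arrays. On each zone's own arrays 0 of the 4 loci were called in zone 1 (0 of all probe sets, 520 at an unadjusted p under 0.05, limma). Zone 2 had 3 of the 4 loci and 12 of all 16505 probe sets called. Zone 3 had 1 and 14, and zone 4 had 3 and 112. Leaving out 1 of a zone's arrays, which leaves 1 array in a group, lowered the number of the 4 loci called in most fits. In zones 1, 2 and 4 it did so in every such fit, and in zone 3 only in some. The number of all probe sets called also fell in most of them. Each of the 4 differences kept its sign in these fits. Across all probe sets 0.0485% were called higher and 0.0182% lower in all 4 zones, 8 and 3 probe sets. Of these 11, 5 had a single locus, the other 2 being AT1G47400 and SAPX. AT1G47400 was under the 40th percentile on all 8 standard arrays, and -Fe medium was at least 10.1-, 10.6-, 11- and 8.54-fold higher in zones 1 to 4. For SAPX the log2 differences were all below 0 (-1.32, -1.58, -1.90 and -2.35). SAPX is a stromal ascorbate peroxidase and holds heme. Within a zone the arrays of the media did not overlap for 15.5% of probe sets (zone 1), 13.8% (zone 2), 11.7% (zone 3) and 16.8% (zone 4) on the higher side, and for 15.1%, 20.3%, 17% and 26.5% on the lower. In all 4 zones at once this held for 0.594% and 1.01%. The 8 arrays of one medium did not overlap the 8 of the other, all zones together, for each of the 4 loci. This was so for 0.0727% of probe sets on the higher side and 0.0485% on the lower. Nothing is read from these calls, p-values and counts, since the same differences chose the loci.

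Along the root the gap between media of AT3G56360, bright on all arrays, went from 3.68 in zone 2 to 1.94 in zone 4, a span of 1.73 on the log2 scale against an SD between replicates of 0.43. No order of zones is read from the gaps of AT3G49160 and AT5G05250, which include dim signal. The standard mean of AT3G56360 rose 9.52-fold from its lowest to its highest zone and its -Fe mean 2.72-fold. For AT3G49160 the standard means spanned 3.34-fold, and the -Fe means, all in the dim range, 1.17-fold. Whether the gap itself differed between zones was not tested, since the loci were chosen for a difference in every zone.

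Differences between zones within one medium played no part in the choice and were tested. The test was limma's moderated F over 4 zones, 2 arrays each, with p-values adjusted over all probe sets. It called 73.7% of probe sets on standard and 77.4% on -Fe medium, so a call is the usual outcome in these root pieces, and 2 of the 4 loci were called on each medium. AT3G56360 changed along the root on both media (adjusted p = 3.79e-05 on standard and 0.00463 on -Fe medium). AT3G49160 changed on standard medium (adjusted p = 0.0266), and AT5G05250 on -Fe medium (adjusted p = 0.0358). AT2G36885 passed on neither (adjusted p = 0.574 and 0.103), and its standard means spanned 1.39-fold and its -Fe means 1.91-fold.

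For AT3G56360 leaving out each array in turn kept both calls (highest adjusted p 0.000416 on standard and 0.0201 on -Fe medium). The AT3G49160 call was lost without zone 2 standard replicate 1 (adjusted p = 0.0507) or 2 (0.114) and without zone 4 standard replicate 1 (0.0595) or 2 (0.0795), and it was also lost with no offset (0.422). That of AT5G05250 was lost without zone 2 -Fe replicate 2 (0.149), zone 4 -Fe replicate 1 (0.101), zone 3 -Fe replicate 1 (0.0654) or 2 (0.0598), zone 1 standard replicate 1 (0.0501), and with no offset (0.0625). With replicate number as a block, AT5G05250 passed on standard medium too (adjusted p = 0.026 against 0.115).

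The steps between neighbouring zones that passed were all from zone 2 to zone 3, for 2 of the 4 loci on each medium. On standard medium AT3G56360 rose there by 2.00 ± 0.37 (log2, SE, 2 against 2 arrays, adjusted p = 0.000796), from a mean of 142.8 to 615 units. AT3G49160 rose by 1.29 ± 0.47 (adjusted p = 0.0367), from 66.1 to 181 units. On -Fe medium AT5G05250 rose by 1.67 ± 0.61 (adjusted p = 0.0361), from 855 to 2346 units, and AT3G56360 by 1.18 ± 0.37 (adjusted p = 0.0174), from 1916 to 4327 units. Of all probe sets 22.9% were called higher at this step on standard medium and also 22.9% on -Fe medium, against 2 of the 4 loci on each. For AT2G36885 the step measured 0.30 ± 0.33 on standard and 0.10 ± 0.33 on -Fe medium (adjusted p = 0.478 and 0.82), and for AT5G05250 1.07 ± 0.61 on standard medium (adjusted p = 0.16).

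Of these 4 rises that of AT3G56360 on standard medium was kept with each array left out in turn (highest adjusted p 0.0116). On -Fe medium it was lost without zone 2 replicate 2 (adjusted p = 0.106) or zone 3 replicate 2 (0.0989). The AT5G05250 rise was lost without zone 2 -Fe replicate 2, which held that locus's lowest -Fe signal (0.84 on the log2 scale, adjusted p = 0.337), and without zone 3 -Fe replicate 1 (0.118) or 2 (0.1). The AT3G49160 rise was lost without zone 2 standard replicate 1 (0.057) or 2 (0.186) and without zone 3 standard replicate 1 (0.257). It was also lost with no offset (0.299), with array weights (0.115) and without the filter on dim signal (0.0531). The AT5G05250 step on standard medium passed without zone 3 standard replicate 2 (1.80, adjusted p = 0.0463).

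**Figure D3:**
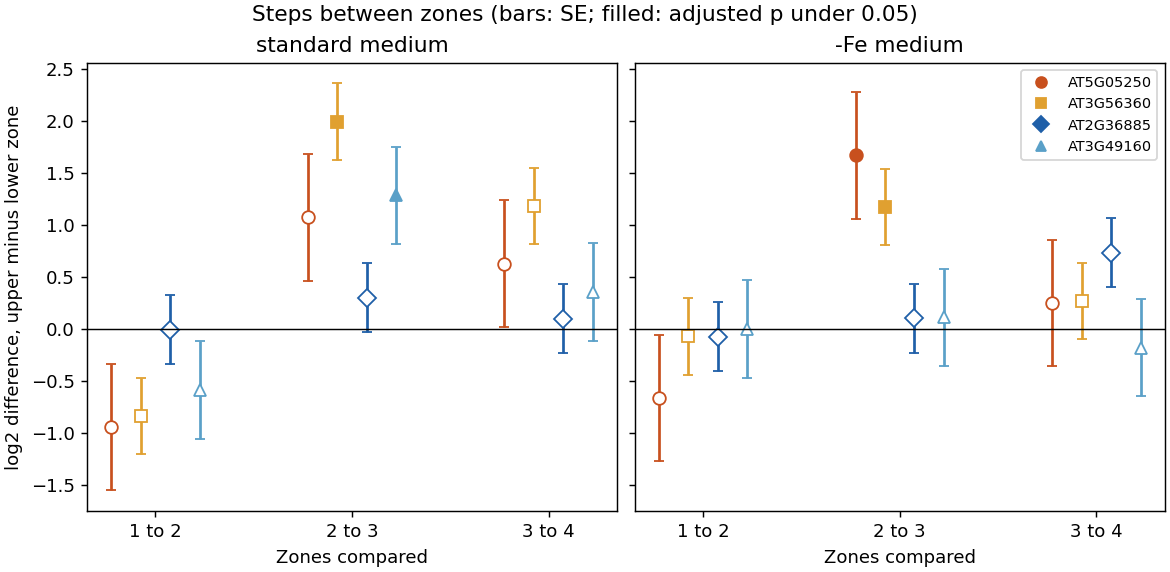
Log2 difference from each zone to the next one up the root for the 4 loci, on standard medium (left) and -Fe medium (right); bars are SE, 2 against 2 arrays, and filled symbols passed an adjusted p under 0.05. The 4 filled symbols all belong to the step from zone 2 to zone 3, at 2.00 and 1.29 on standard and 1.67 and 1.18 on -Fe medium.

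No other step between neighbouring zones passed for any of the 4 loci, on a background of 20.5% of probe sets called from zone 1 to 2 and 8.58% from zone 3 to 4 on standard medium, and 30.7% and 15.6% on -Fe medium. From zone 1 to zone 2 the standard signal differed by -0.95 ± 0.61 for AT5G05250, -0.84 ± 0.37 for AT3G56360, -0.59 ± 0.47 for AT3G49160 and -0.01 ± 0.33 for AT2G36885 (adjusted p from 0.117 to 0.989). The AT3G56360 value was -1.49 without zone 1 standard replicate 1 and then passed (adjusted p = 0.0312). From zone 3 to zone 4 AT3G56360 differed by 1.18 ± 0.37 on standard medium (adjusted p = 0.0639), as much as in its called step on -Fe medium, so the rise is not placed at 1 step. This step passed without zone 3 standard replicate 1 (0.0185) and also without zone 1 standard replicate 1 (0.0292) or 2 (0.0293). On -Fe medium the signal differed from zone 1 to 2 by -0.67 ± 0.61 for AT5G05250, -0.07 ± 0.37 for AT3G56360 and -0.08 ± 0.33 for AT2G36885 (adjusted p from 0.435 to 0.904). The largest of these other steps on that medium was that of AT2G36885 from zone 3 to 4, at 0.73 ± 0.33 (adjusted p = 0.162).

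On standard medium the mean log2 signal of all 4 loci ran in the same order, zone 2 lowest, then zone 1, zone 3 and zone 4. On -Fe medium 3 of the 4 kept this order, AT3G49160 lying in the dim range there. The order was noticed after the values were seen, and 7.94% of all probe sets had it on standard medium, 8.81% on -Fe medium and 4.46% on both. With median centring 3 loci had it on standard and 1 on -Fe medium, and with quantile normalization 3 and 2. Median centring moved the median probe set from -0.15 to 0.14 in the step from zone 1 to 2 on -Fe medium. Neighbours in that order did not all differ beyond their spread. Zones 1 and 3 were compared after the values were seen, and AT3G56360 was higher in zone 3 by 1.16 ± 0.37 on standard (adjusted p = 0.0145) and by 1.10 ± 0.37 on -Fe medium (adjusted p = 0.0184), on a background of 30% and 29.1% called higher. Both calls were fragile, the first lost without zone 1 standard replicate 1 (0.216) or zone 3 standard replicate 1 (0.144) and on the standard arrays alone (0.0502), the second without zone 1 -Fe replicate 2 (0.0872) or zone 3 -Fe replicate 2 (0.0971). Zones 3 and 1 differed by 0.13 ± 0.61 for AT5G05250, 0.29 ± 0.33 for AT2G36885 and 0.70 ± 0.47 for AT3G49160 on standard medium, none of which passed (adjusted p from 0.21 to 0.864).

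The 3' to 5' signal ratio of the ubiquitin controls, which can rise with RNA degradation, moved with zone. It was 5.43 to 6.45 in zone 1, 3.63 to 4.79 in zone 2, 2.78 to 3.55 in zone 3 and 2.64 to 3.16 in zone 4 on standard medium. On -Fe medium it was 5.32 to 6.41, 3.21 to 3.96, 2.75 to 3.10 and 2.92 to 3.21. The actin ratio was lowest in zone 2 on standard medium (3.93 to 4.87) and also on -Fe medium (5.18 to 5.58). Its highest value, 10.2, was on replicate 1 of zone 4 -Fe medium. In zone 2 the mean signal of AT5G05250, AT3G56360 and AT2G36885 was lowest on both media, and that of AT3G49160 on standard medium. The GAPDH ratio ran from 1.402 to 2.165 over all arrays, and its zone 2 values overlapped those of zones 3 and 4 on both media. The part of these ratios in the zone differences was not tested.

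The 4 loci were also set beside each other over the arrays of one medium, which differ by zone and replicate. AT3G56360, higher on -Fe medium, and AT3G49160, lower on it, ran together along the root on standard medium, with r = 0.94 and rho = 0.91 over 8 arrays, and r = 0.94 without the 2 arrays furthest from the median of AT3G56360. On -Fe medium, where AT3G49160 was in the dim range, r was -0.01. Over all 16 arrays, where the difference between media enters, r was -0.63. For this pair the opposite direction between media went with the same direction between zones of the standard root. The other pairs of opposite direction varied on standard medium. AT5G05250 and AT3G49160 had r = 0.80, AT3G56360 and AT2G36885 0.53, and AT5G05250 and AT2G36885 0.01. On this medium 73.7% of probe sets changed over zones, and the r of other pairs of probe sets was not taken as a background. AT5G05250 and AT3G56360 had r = 0.80 on standard and 0.84 on -Fe medium (rho 0.86 and 0.83, and r = 0.61 and 0.77 on 6 arrays). AT2G36885 and AT3G49160, both lower on -Fe medium, had r = 0.57 and 0.36 (rho 0.67 and 0.29, and r = 0.34 and -0.22 on 6 arrays). These values describe arrays that share zones and are given with no p.

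**Figure D4:**
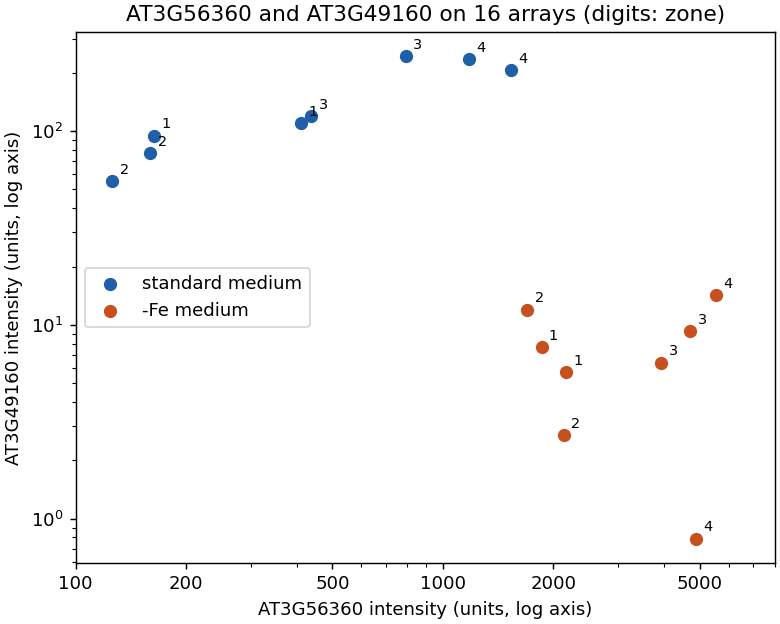
Intensity of AT3G49160 against AT3G56360 (units, both axes logarithmic), each point 1 of 16 arrays, with its zone as a digit; blue is standard and orange -Fe medium. The standard points climb together from zone 2 to zones 3 and 4 (r = 0.94 on the log2 scale), while the -Fe points lie to the lower right with no such run (r = -0.01).

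The loci whose signal was most like that of each of the 4 over the 16 arrays were sought among 9057 single loci, by Pearson's r of log2 values. Over 16 arrays r takes in the difference between media, which chose the 4 loci. Loci that differ between media therefore tend to rank as nearest or most opposite, and the ranking is no separate evidence. For AT5G05250 they were AT1G47400 (r = 0.96), BHLH101 (0.92) and AT3G56360 (0.91), and the most opposite was SAPX (-0.96). Within one medium the likeness to AT1G47400 and BHLH101 was looser, with r = 0.24 and 0.27 over the standard arrays and 0.56 and 0.70 over the -Fe arrays. Both were under the 40th percentile on all 8 standard arrays. For AT3G56360 they were AT1G74770 (0.95), AT5G05250 (0.91) and AT2G41730 (0.87), and again SAPX was the most opposite (-0.89). Within one medium AT3G56360 and AT1G74770 had r = 0.93 on standard and 0.96 on -Fe medium, and AT3G56360 and SAPX -0.67 and -0.96. These values follow zone, and no background of other pairs was taken. AT3G49160, of opposite direction between media, had r = 0.94 with AT3G56360 on standard medium.

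For AT2G36885 the nearest loci were AT3G49160 (0.94), SIR (0.84) and SAPX (0.81). SIR encodes sulfite reductase, an enzyme with siroheme and an iron-sulfur cluster. For AT3G49160 they were AT2G36885 (0.94), SIR (0.85) and SAPX (0.83). The most opposite locus was AT1G47400 for both (-0.96 and -0.95). Within one medium the values were lower. AT2G36885 and SIR had r = -0.22 on standard and -0.24 on -Fe medium, and AT3G49160 and SAPX had r = -0.82 over the standard arrays. By Spearman's rho 1 of the 3 nearest loci stayed among the nearest 3 for each of AT5G05250, AT2G36885 and AT3G49160 and 2 of 3 for AT3G56360.

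Other genes of the iron response, averaged over zones, are given from fixed lists that are no independent evidence of direction, on a background of 1.41% of probe sets called, 0.666% higher and 0.739% lower. A gene is called measured here if a probe set annotated to that single locus passed the filter on dim signal. Genes not measured in this sense are not shown to be missing from the array or silent. Of 20 iron regulators 10 were measured, and 4 rose and none fell. The 4 were AT1G47400 (3.88 ± 0.17, log2, SE, 8 against 8 arrays), BHLH101 (4.45 ± 0.25), AT1G74770 (3.02 ± 0.26) and PYE (1.53 ± 0.17), and the median was 0.37, against -0.06 over all probe sets. The differences of AT1G47400 and BHLH101 are set against dim standard signal and depend on the offset. For BHLH101 -Fe medium was at least 3.6-fold higher in zone 1, 2.42-fold in zone 2, 13.9-fold in zone 3 and 34.1-fold in zone 4. Of 26 uptake and transport genes 1 was measured, AT3G58060, which rose by 3.09 ± 0.26. It was above the 40th percentile on 1 of 8 standard arrays and on 6 of 8 -Fe arrays, both zone 1 arrays being under it, and -Fe medium was at least 1.69-fold higher in zone 2 and at least 24.1-fold in zone 4. Of 8 coumarin genes 4 were measured and 2 rose, BGLU42 (1.15 ± 0.23) and AT3G12900 (1.97 ± 0.42), with a median of 0.91. Zone 4 carried both averages, with 4.399 for BGLU42 and at least 67.4-fold for AT3G12900, dim on all standard arrays, while BGLU42 lay between -0.05 and 0.27 in zones 1 to 3. This count was 0 or 1 in 11 of 16 fits with 1 array left out.

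On the lower side, 2 of 14 storage and iron-protein genes were measured and both fell, SAPX (-1.79 ± 0.11) and SIR (-1.53 ± 0.12), with a median of -1.66. The average differences of AT2G36885, -2.29 ± 0.17, and AT3G49160, -3.22 ± 0.23, stand beside these, the latter tied to the offset. Lists of enzymes of primary metabolism and of translation, which did not include any of the 4 loci, had no member past the threshold in limma's test. They comprised 3 measured pyruvate kinase genes of 13 (median 0.02, 1 at an unadjusted p under 0.05), 4 measured genes of 31 for other glycolysis and PEP carboxylase (median 0.16, 1 under 0.05) and 8 measured translation initiation factors of 23 (median -0.16, 2 under 0.05). Most genes of these lists were not measured, so nothing is said of the families as a whole. Of the 8 protein-coding neighbours of the 4 loci in the RefSeq TAIR10.1 order, 1 was measured, AT3G56370 beside AT3G56360, and it differed by -0.12 ± 0.15 between media (adjusted p = 0.755).

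**Figure D5:**
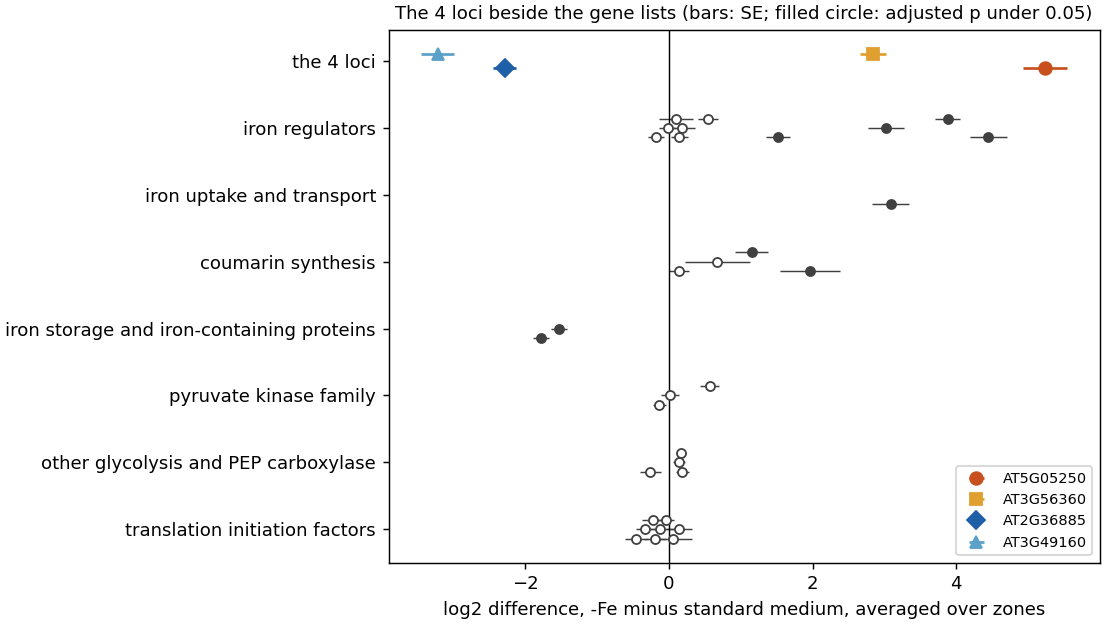
Log2 difference between media averaged over the zones (-Fe minus standard) for the 4 loci and for each measured gene of 7 lists; bars are SE, 8 against 8 arrays, and filled circles passed an adjusted p under 0.05. AT5G05250 is plotted at 5.24 and AT3G49160 at -3.22, with the filled iron regulators between 1.53 and 4.45. Values set against dim signal, those of AT5G05250, AT3G49160, AT1G47400, BHLH101, AT3G58060 and AT3G12900, depend on the offset.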

How the data were processed

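Total RNA from pooled root pieces was measured on 16 one-colour Affymetrix arrays. The deposited values were probe-set intensities on a linear scale, made with MAS5 per the submitters' processing notes. The version of MAS5 is not given in the sources used here. Between its 2nd and 98th percentiles each array had a mean close to 250 units (249.9), as a global scaling gives. Here 64 control probe sets were left out, log2 values were taken after adding 7.73 units, the 20th percentile of all intensities, and the 16505 probe sets above their array's 40th percentile on at least 2 arrays were tested. This scale understates the change of dim probe sets.

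limma 3.58.1 in R 4.3.3 fitted 8 group means to all 16 arrays (8 residual degrees of freedom, intensity trend in eBayes), with Benjamini-Hochberg adjustment within each contrast and a threshold of 0.05. The script was run on simulated data with independent noise and steps set between zones of standard medium. Differences between media and effects shared by replicates were not simulated, so that run does not bear on them. Probe sets were named through the platform annotation, updated to RefSeq TAIR10.1: 13513 had 1 gene, 503 several and 8730 none listed. The probe set with the highest mean stood for a locus. The loci and the gene lists were chosen with earlier results of these data known. Named genes were the 4 loci, for each the 3 loci of highest and the 1 of lowest r, up to 4 called genes of smallest p per list, and AT1G47400, BHLH101 and PYE. Protein and promoter sequences were not used here. The labels do not say whether replicates were separate cultures. P-values therefore measure only the spread between these pools, which may be technical, and 2 arrays per group limit the precision. Alternatives covered the offset, normalization, filter, replicate block, array weights, variance trend, arrays fitted and each array left out.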

Additional observations from a re-analysis of the deposited data

How the results depend on the processing

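The differences between media kept their sign in the 9 other settings run on them, with each array left out and on each zone's own arrays. Those of AT3G49160, dim on -Fe medium, followed the offset: with it doubled they were -2.41 in zone 1, -3.0 in zone 3, -3.42 in zone 4 and -2.67 on average, and without it -3.95, -3.52, -4.47 and -6.04 in zones 1 to 4 and -4.49 on average. With no offset the step from zone 2 to 3 no longer passed for AT3G49160 on standard medium (1.38) or for AT5G05250 on -Fe medium (1.68), nor did their F tests over zones (adjusted p = 0.422 and 0.0625). The AT3G49160 step, 1.29, also did not pass without the filter or with array weights, and the step of AT3G56360 from zone 1 to 3 on standard medium, 1.16, did not pass on the arrays of that medium alone. The step from zone 1 to 2 turned sign with median centring for AT3G56360 (0.22 on -Fe), AT2G36885 (0.12 on standard, 0.21 on -Fe) and AT3G49160 (0.29 on -Fe). With quantile normalization it turned for AT2G36885 (0.01 and 0.18) and AT3G49160 (0.08 on -Fe), whose step from zone 2 to 3 on -Fe medium was then -0.04, and with the doubled offset for AT3G49160 (0.01). None of these steps passed in the main setting except where stated, and the cause was not tested. The labels tie the replicate numbers to no shared batch, and pairing was not established: correlations of replicate differences ran from -0.13 to 0.47, over 0.1 in 15 of 28 pairs of groups and not in the rest. With the replicate block 320 probe sets were called between media on average against 232, and AT5G05250 passed the F test on standard medium (adjusted p = 0.026). Leaving out 1 array at a time gave these lowest and highest values. For AT5G05250 they were 4.28 to 5.94 between media in zone 2. On standard medium its steps were 0.35 to 1.80 (zone 2 to 3), -0.10 to 1.36 (3 to 4) and -0.60 to 0.86 (1 to 3). On -Fe medium they were -1.49 to 0.16 (1 to 2), 0.84 to 2.50 (2 to 3) and -0.08 to 0.58 (3 to 4), with an F test adjusted p of 0.0102 to 0.149. For AT3G56360 they were 2.26 to 3.56 between media in zone 1. On standard medium its steps were -1.49 to -0.19 (1 to 2), 0.76 to 1.60 (3 to 4) and 0.51 to 1.80 (1 to 3), and on -Fe medium -0.24 to 0.09 (1 to 2), 1.01 to 1.34 (2 to 3) and 0.97 to 1.23 (1 to 3). For AT2G36885 they were -2.38 to -1.47 between media in zone 4. Its standard steps were -0.15 to 0.13 (1 to 2) and -0.36 to 0.55 (3 to 4), and its -Fe steps -0.41 to 0.26 (1 to 2), -0.05 to 0.26 (2 to 3) and -0.31 to 0.36 (1 to 3). For AT3G49160 they were -4.74 to -3.38 between media in zone 4. Its standard steps were 0.80 to 1.78 (2 to 3) and -0.14 to 0.85 (3 to 4), with an F test adjusted p of 0.0113 to 0.114, and its -Fe steps -0.46 to 0.46 (1 to 2), -0.35 to 0.57 (2 to 3), -0.86 to 0.50 (3 to 4) and -0.03 to 0.24 (1 to 3). Counts of all calls depended on single arrays: between media 18 (3 to 21) in zone 1, 17 (6 to 22) in zone 2, 48 (23 to 125) in zone 3, 153 (63 to 223) in zone 4 and 232 (147 to 319) on average. On a zone's own arrays they were 0 in zone 1 (520 at an unadjusted p under 0.05, limma) and 14 in zone 3, and with array weights 26 in zone 2 and 23 in zone 3. On standard medium 3377 probe sets were called from zone 1 to 2 (310 to 4086, and 1488 on that medium's arrays) and 1416 from zone 3 to 4 (198 to 3367, 320 on that medium's arrays and 328 with array weights), 8249 from zone 2 to 3 (5245 to 8214), and on -Fe medium 5062 from zone 1 to 2 (1400 to 5778) and 2568 from zone 3 to 4 (837 to 3222). The coumarin count of 2 was 1 with no offset or with array weights and 0 to 2 with an array left out, and the pyruvate kinase count of 0 was 1 with median centring or the block. The promoter motif search was not run.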
